A study of Mus musculus with 12 samples.

Results

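Levels of messenger RNA were compared for the core splicing factor genes of the mouse, chosen by name: every gene whose symbol starts with Sf3a, Sf3b, Srsf, Snrp or Hnrnp, with Snrpn left out. Genes were chosen by symbol alone, though with earlier results of these data known. The probe set that stands for each gene was the one with the highest mean over the 12 arrays. The rule took 46 of the 18194 named genes on the array, in 4 families: 9 SF3 genes, 8 snRNP genes, 10 SR genes and 19 hnRNP genes. Of these, 45 reached the level needed for a test. The exception was Srsf12, which lay between 2.97 and 3.39 on all 12 arrays, near background.

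All embryos were of the ICR strain, with 2 arrays in each of 6 groups. Untreated control embryos were 2-cell embryos at day 1.5, 4- to 8-cell embryos at day 2.5, and morulae to blastocysts at day 3.5. Embryos kept in 20 µM U0126, an inhibitor of the MEK kinases that activate ERK, were collected at day 2.5, when they had stopped at the 4-cell stage. Embryos that resumed division after the inhibitor was withdrawn were collected at day 3.5 (8-cell) and day 4.5 (morula to blastocyst), and are called released embryos here. The number of embryos per array, any vehicle given to controls and the hours of treatment are not given in the sources used here.

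Splicing removes introns from newly made RNA in the spliceosome, a machine of small nuclear RNAs and their proteins. Some Snrp genes encode Sm proteins, which form a ring on most of those RNAs, and others encode proteins particular to the U1 or U2 particle. SF3A and SF3B sit in the U2 particle, which binds the branch point of the intron. SR proteins bind exons and recruit the spliceosome, while hnRNP proteins coat the RNA and often keep exons out. In the mouse, the embryo's own genome is switched on at the 2-cell stage while RNA stored in the egg is broken down, so RNA at day 1.5 can come from both. Many splicing factor genes also splice their own RNA into several forms, and different probe sets of a gene can report different forms.

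Levels are log2(intensity + 1) of 1 probe set per gene, so a difference of 1 is a 2-fold change. Differences between group means carry a standard error from 1 limma fit over 9930 genes, and a gene was said to rise or fall when its Benjamini-Hochberg adjusted p from limma was under 0.05. Depth does not apply to arrays, and the number of arrays limits the precision: the median standard error of a difference was 0.27 for the splicing factor genes and 0.35 for all genes. The series speaks of 2 independent experiments, but nothing says that the arrays came from separate cultures or animals, so the p-values speak only of how far these arrays spread, and that spread may be technical. The RNA came from whole embryos, and fewer cells of a type cannot be told apart from less RNA per cell. The arrays of a group correlated at r = 0.955 to 0.980 over all genes tested. The median absolute difference between them was 0.20 to 0.34 over the splicing factor genes, and was widest under U0126. All 10 embryo markers passed the filter on low levels, against 0 of 9 for cumulus cells and 0 of 8 for sperm. For blood and immune cells 1 of 7 passed: the macrophage gene Cd68 averaged 6.90 under U0126, and the summed level of that list was 7.03 to 7.60 there against 5.72 to 6.43 in the other groups. Of 7 oviduct markers, 2 passed, and the summed level of the list was 8.62 to 8.88 at released day 4.5 against 6.02 to 7.39 in the other groups. That sum followed Wfdc2, which averaged 8.56 at released day 4.5 and also rose in controls, from 3.18 at day 2.5 to 6.41 at day 3.5. Ovgp1 averaged 4.40 at released day 4.5 and was highest under U0126, at 5.60. The part of these signals in the results below was not tested.

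The gap between a gene's highest and lowest group mean had a median of 1.30, against 2.05 for all genes, and ranged from 0.21 for Snrpe, a core Sm protein, to 3.25 for Hnrnpul2. It exceeded 2 for 8 of 45 members (17.8%) and for 51.7% of all genes tested. The lowest group was control day 1.5 for 23 of the 45 (51.1%, against 37.5% of all genes), and released day 4.5 for another 13 (28.9%, against 23.3%). The highest group was control day 1.5 for 7 (15.6%, against 30.7%) and control day 3.5 for 11 (24.4%, against 10.7%). Among the families, 6 of 8 snRNP genes were highest at control day 3.5, 5 of 9 SF3 genes at released day 3.5, and 7 of 19 hnRNP genes under U0126. Of all genes tested, 7.59% were highest at released day 3.5 and 16.5% under U0126. Some places rested on narrow margins. Snrpe averaged 13.7036 at control day 3.5 and 13.7034 at control day 2.5. Sf3b4 averaged 9.575 at released day 3.5 and 9.559 at control day 2.5. These places are descriptions of group means and carry no test.

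**Figure D1:**
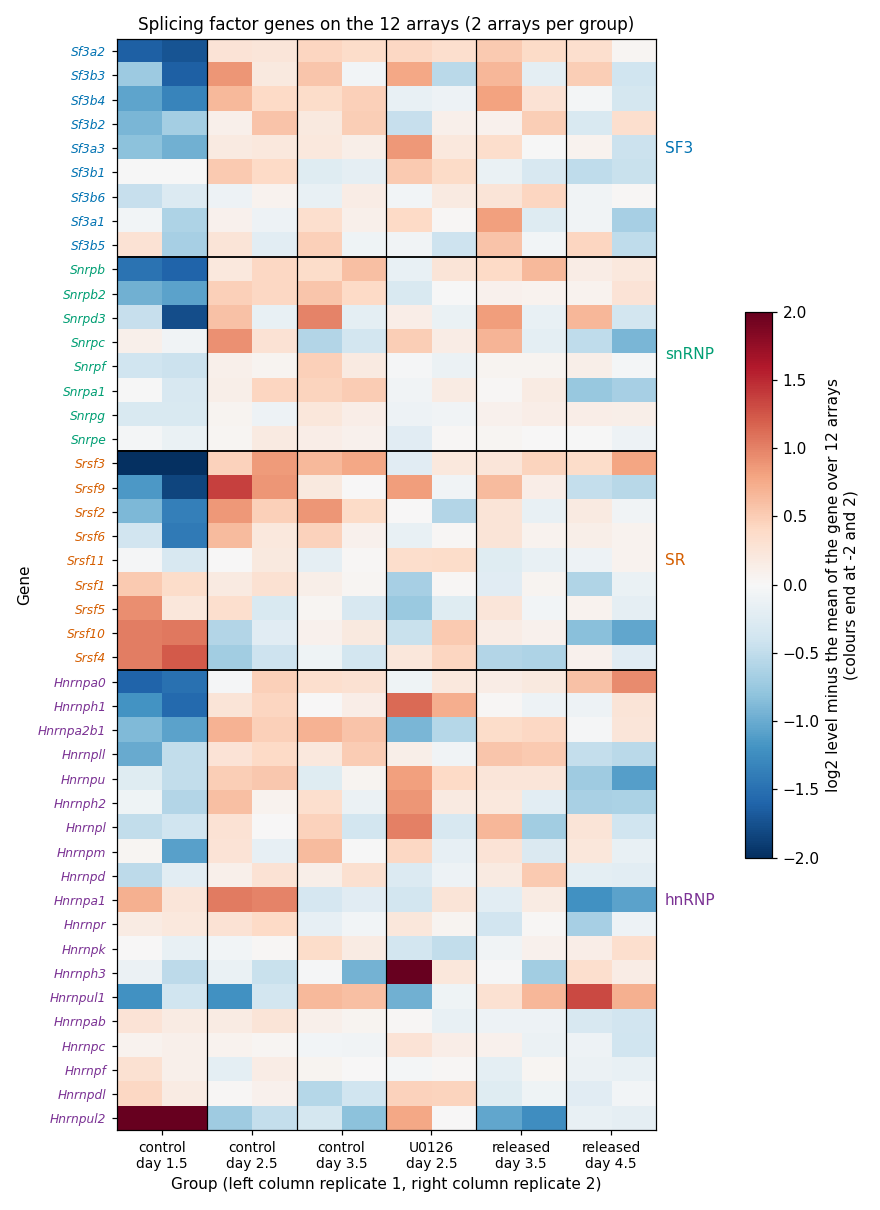
Each row is 1 of the 45 splicing factor genes tested, each column 1 array, and the colour gives the log2 level minus the gene's mean over the 12 arrays. The day 1.5 control columns are blue for most genes, with Hnrnpul2, Srsf4 and Srsf10 standing out in red.

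More splicing factor genes rose than fell from the 2-cell to the 4- to 8-cell stage, and most did not pass the test. Between control day 1.5 and day 2.5, 16 of 45 rose and 3 fell, with a median difference of 0.53. Among all genes tested, 28% rose and 27.4% fell, with a median of 0.09. All 9 SF3 genes and all 8 snRNP genes had positive differences, of which 5 and 2 passed the test. Of all genes tested, 5237 of 9930 had positive differences. In the SR family 4 of 9 rose and 2 fell, and in the hnRNP family 5 of 19 rose and 1 fell. With the replicate number as a block, 20 rose and 3 fell, against 3181 and 2959 of the 9930 genes.

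The SR gene Srsf3, whose protein also couples splicing to RNA export, made the widest upward step of the members. It lay at 9.38 and 9.15 on the day 1.5 arrays, at 12.01 and 12.40 on the day 2.5 arrays and at 12.19 and 12.33 on the day 3.5 arrays. The day 1.5 values lay far below the others, and the rise to day 2.5 was 2.94 ± 0.28 (SE, adjusted p = 1.0e-05), a 7.68-fold change. Srsf9, an SR protein with a short tail, rose by 2.61 ± 0.37 (adjusted p = 1.4e-04), from 8.59 and 7.91 to 11.11 and 10.63. Srsf2, an SR protein that recognizes exonic enhancers, rose by 1.81 ± 0.33 (adjusted p = 7.9e-04), from 9.64 and 9.16 to 11.40 and 11.01. The arrays of the 2 days did not overlap for any of the 3 genes. Srsf6 rose by 1.32 ± 0.34 (adjusted p = 0.0072), from 10.15 and 9.11 to 11.15 and 10.75. Leaving out the second day 1.5 array (adjusted p = 0.06) or the first day 2.5 array (0.0585) ended this call.

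Of the SF3 genes 5 of 9 rose, and the differences of all 9 ran from 0.21 to 1.95. Sf3a2, a subunit of SF3A, stood at 8.68 and 8.59 on day 1.5 and at 10.59 and 10.56 on day 2.5, a rise of 1.95 ± 0.23 (adjusted p = 4.9e-05). The groups did not overlap, and from day 2.5 on every array of every group lay between 10.35 and 10.84. Sf3b4, which holds the U2 particle to the intron upstream of the branch point, rose by 1.71 ± 0.27 (adjusted p = 3.0e-04) and Sf3a3 by 1.08 ± 0.30 (adjusted p = 0.0100). Sf3b3 rose by 1.72 ± 0.53 and Sf3b2 by 1.13 ± 0.33, both with calls that depended on single arrays. For Sf3b3 the adjusted p moved from 0.018 to 0.138 without control day 1.5 replicate 2 and to 0.116 without control day 2.5 replicate 1. For Sf3b2 it moved from 0.014 to 0.0678 without control day 1.5 replicate 1 and to 0.101 without control day 2.5 replicate 2. Sf3b1, the subunit that clasps the branch point, was 12.05 on both day 1.5 arrays and 12.58 and 12.46 on the day 2.5 arrays, which did not pass.

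Of the snRNP genes, Snrpb, which encodes the Sm proteins B and B', rose by 1.85 ± 0.25 (adjusted p = 1.2e-04), from 11.09 and 10.96 to 12.77 and 12.97. Snrpb2, which encodes a protein of the U2 particle, rose by 1.46 ± 0.24 (adjusted p = 3.9e-04). The core Sm genes Snrpe, Snrpf and Snrpg had differences between 0.20 and 0.50 that did not pass, and Snrpe stayed between 13.37 and 13.77 on all 12 arrays. Among the hnRNP genes, Hnrnpa0 rose by 1.78 ± 0.27, Hnrnph1 by 1.72 ± 0.27 and Hnrnpa2b1 by 1.56 ± 0.25, with adjusted p from 2.2e-04 to 3.5e-04. Hnrnpu, a scaffold protein of the nucleus, rose by 0.89 ± 0.27, but its adjusted p of 0.016 moved to between 0.0584 and 0.0751 without control day 1.5 replicate 2 or either day 2.5 control array. The other 4 probe sets of Hnrnpu did not pass in this step, at -0.02, -0.10, -0.10 and 0.80, so this rise rests on 1 of 5.

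The 3 genes that fell were highest in 2-cell embryos. Hnrnpul2 stood at 11.24 and 11.48 on day 1.5 and at 8.54 and 8.77 on day 2.5, a fall of 2.71 ± 0.31 (adjusted p = 3.4e-05). A second, dimmer probe set of this gene moved by only -0.28 (adjusted p = 0.458), so the fall rests on 1 probe set. Srsf4, an SR protein with a long tail, fell by 1.68 ± 0.25 (adjusted p = 2.3e-04), from 10.18 and 10.37 to 8.45 and 8.73. Srsf10, an SR-like protein that represses splicing when dephosphorylated, fell by 1.45 ± 0.32 (adjusted p = 0.0029), from 10.65 and 10.67 to 9.03 and 9.39. Hence the SR family held members at both ends of this step.

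**Figure D2:**
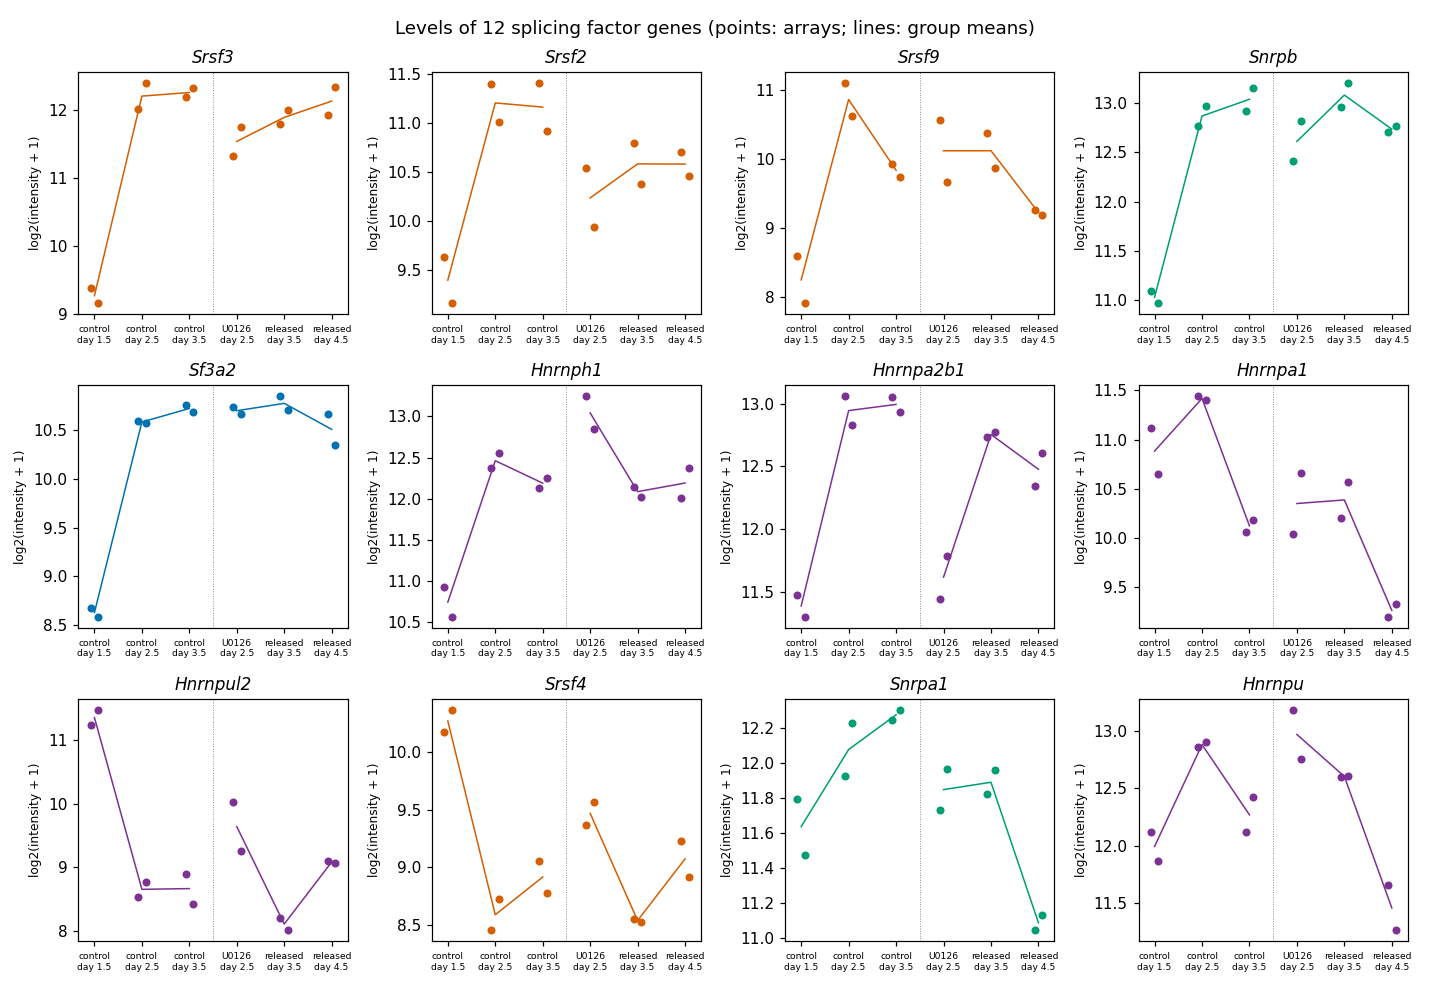
Points are arrays and lines join the means of the 3 control groups and of the U0126 and released groups, for 12 splicing factor genes on a log2(intensity + 1) axis. Srsf3, Srsf2, Srsf9, Snrpb, Sf3a2 and Hnrnph1 have their lowest arrays at control day 1.5, Hnrnpul2 and Srsf4 their highest, and Hnrnpa2b1 drops under U0126 to 11.44 and 11.79.

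The sequences before the start sites are shown for 4 of the genes that moved in this step, because genes that rose and a gene that fell can then be set side by side. RefSeq promoters of build GRCm38.p6 were found for 41 of the 46 members, and each window below is the 250 bases upstream of the annotated start, 5′ to 3′ on the gene's strand. Srsf4 had 3 annotated starts, of which 1 is shown. Capitals mark exact matches, on either strand, to CCGGAAG (the core of ETS sites), CCAAT or TATAAA. The windows lie at chr17:29032410-29032659 (plus strand) for Srsf3, chr11:116853095-116853344 (minus) for Srsf2, chr10:80798485-80798734 (plus) for Sf3a2 and chr4:131873387-131873636 (plus) for Srsf4.
Srsf3: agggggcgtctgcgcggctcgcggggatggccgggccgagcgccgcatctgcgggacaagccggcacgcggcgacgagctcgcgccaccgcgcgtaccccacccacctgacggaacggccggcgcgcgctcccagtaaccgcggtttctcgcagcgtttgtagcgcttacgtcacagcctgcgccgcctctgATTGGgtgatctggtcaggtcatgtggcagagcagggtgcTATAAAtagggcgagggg
Srsf2: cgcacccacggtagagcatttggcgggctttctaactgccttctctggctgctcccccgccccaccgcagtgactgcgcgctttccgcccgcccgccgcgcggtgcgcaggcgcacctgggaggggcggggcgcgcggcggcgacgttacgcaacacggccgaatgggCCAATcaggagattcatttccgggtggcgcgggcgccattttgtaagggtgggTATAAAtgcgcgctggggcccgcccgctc
Sf3a2: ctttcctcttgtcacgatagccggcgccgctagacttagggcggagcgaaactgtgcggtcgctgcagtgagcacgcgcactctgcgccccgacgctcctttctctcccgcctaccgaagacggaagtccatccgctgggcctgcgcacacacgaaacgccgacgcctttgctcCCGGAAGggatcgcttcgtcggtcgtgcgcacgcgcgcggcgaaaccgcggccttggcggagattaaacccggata
Srsf4: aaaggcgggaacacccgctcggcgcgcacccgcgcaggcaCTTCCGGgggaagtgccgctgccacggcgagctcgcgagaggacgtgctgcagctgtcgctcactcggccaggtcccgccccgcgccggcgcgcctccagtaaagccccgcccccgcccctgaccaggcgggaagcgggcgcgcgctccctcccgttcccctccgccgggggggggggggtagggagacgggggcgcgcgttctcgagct
In Srsf3 and Srsf2 a CCAAT match lay upstream of a TATAAA match, and both windows held 69.6% G and C. Sf3a2, which rose, and Srsf4, which fell, each had an ETS match and neither of the others. Over windows of 300 bases, from 250 before to 50 after the start, a gene counted if any of its promoters held a match. CCGGAAG was found in 15 of 41 members (36.6%), against 9.93% of all genes with a promoter listed and 21.8% of genes tested. Its matches were uneven among the families, with 6 of 7 SF3 genes, 4 of 7 snRNP genes, 3 of 10 SR genes and 2 of 17 hnRNP genes. CCAAT was found in 21 of 41 (51.2%, against 41.06% of all genes and 43.9% of tested genes), of which 12 were among the 17 hnRNP genes. TATAAA was found in 5 (12.2%, against 15.67% of all genes and 8.4% of tested genes). CACGTG was found in 4 (9.8%, against 8.09% and 12.4%), so for both the direction depended on the comparison. TGACGTCA was found in 1 (2.4%, against 2.03% and 3.7%) and CGCATGCG in 2 (4.9%, against 2.07% and 4.8%). No motif contains another, and a match describes the sequence only.

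For 3 SR genes the probe sets of the gene did not move alike in this step. In a fit over all 16572 probe sets that passed the filter, 5 of 6 Srsf3 probe sets rose, by 1.97 to 4.59. The remaining one, 1438215_at, fell by 1.72 ± 0.25 (adjusted p = 2.1e-04). It lay at 6.45 and 6.60 on day 1.5, between 4.70 and 5.02 on the day 2.5 and day 3.5 control arrays and the U0126 arrays, and at 6.15 and 5.81 at released day 3.5. For Srsf2 the brightest probe set rose, while 1452439_s_at fell by 0.80 ± 0.26 (adjusted p = 0.025), from 10.62 and 10.47 to 9.88 and 9.60. For Srsf1, the founding SR protein, the brightest probe set gave 13.82 and 13.67 on day 1.5 and 13.48 and 13.61 on day 2.5, which did not pass. Its probe set 1428100_at rose by 1.73 (adjusted p = 5.8e-04) while 1452430_s_at fell by 2.21 (adjusted p = 0.0013), in the opposite direction. Srsf1 was picked out after its values were seen. Over the 15 called genes of this step with more than 1 probe set, 27 of 34 other probe sets had the same sign as the one used, 20 of them past the test, and 2 passed in the opposite direction. Which transcript form each probe set binds was not analysed here.

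**Figure D3:**
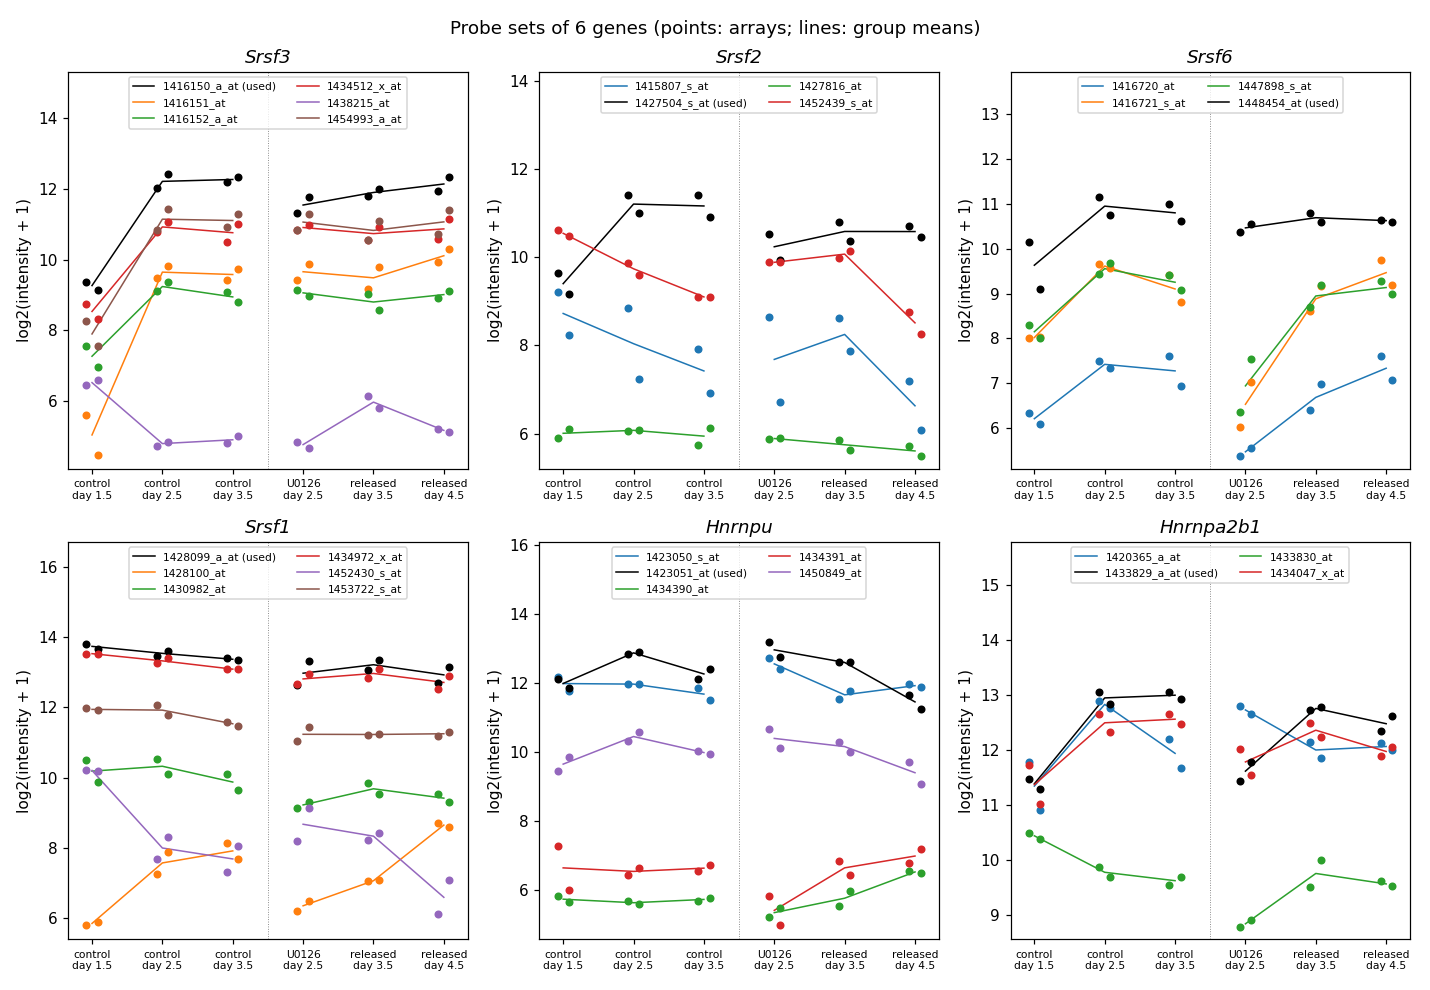
Every probe set that passed the filter is drawn for 6 genes, with points for arrays, lines for group means and black for the probe set used, on a log2(intensity + 1) axis. Srsf3 1438215_at and Srsf2 1452439_s_at fall where the black lines rise, and 3 of the 4 Srsf6 probe sets drop under U0126.

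From control day 2.5 to day 3.5 few members moved. Only 1 of 45 rose and 2 fell (adjusted p under 0.05), with a median difference of 0.01, while 13.4% of all genes rose and 8.28% fell. Hnrnpul1 rose by 1.42 ± 0.42 (adjusted p = 0.035), from 6.99 and 7.83 to 8.85 and 8.80. Hnrnpa1, an abundant hnRNP that shuttles out of the nucleus, fell by 1.29 ± 0.29 (adjusted p = 0.012), from 11.44 and 11.40 to 10.06 and 10.19. Snrpc, which encodes a protein of the U1 particle, fell by 1.08 ± 0.35 (adjusted p = 0.0498), from 12.92 and 12.30 to 11.42 and 11.64. With the replicate block 1 rose and 4 fell, against 1876 and 1226 of the 9930 genes. Each of the 3 calls was lost without some single arrays. The adjusted p of Hnrnpa1 reached 0.0568 to 0.0866 without either day 2.5 array or day 3.5 replicate 1, and that of Hnrnpul1 0.104 to 0.218 without day 2.5 replicate 1 or either day 3.5 array. That of Snrpc reached 0.063 to 0.271 without any of the 4, and 0.060 in the fit over all probe sets. Centring each array on its median shifted all genes in this step from a median of 0.09 to -0.12. The split was then 0 members higher and 4 lower, and 963 genes higher and 1160 lower in place of 1326 and 822.

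At day 2.5, few members differed between embryos held in U0126 and controls of the same day. The test passed for 1 member that was higher and 2 that were lower, with a median of -0.21, while 9.21% of all genes were higher and 4.72% lower, with a median of 0.11. Hnrnpa2b1, a reader of RNA that favours modified bases and sorts small RNAs, lay at 11.44 and 11.79 under U0126 and at 13.06 and 12.83 in controls. The treated arrays reached only to the level of 2-cell controls, at 11.47 and 11.30, and the difference from day 2.5 controls was -1.33 ± 0.25 (adjusted p = 0.0079). Hnrnpa1 was lower by 1.07 ± 0.29 (adjusted p = 0.038), at 10.04 and 10.66. Srsf4 was higher by 0.88 ± 0.25 (adjusted p = 0.043), at 9.37 and 9.57 against 8.45 and 8.73. All 8 snRNP genes were lower than in controls, by 0.06 to 0.60, and none of them passed. Of all genes tested, 5691 of 9930 had positive differences. With the replicate block 3 members were higher and 3 lower, against 1342 and 719 of the 9930 genes. The additions were Hnrnph3 (higher by 1.50; adjusted p = 0.104 without and 0.025 with the block), Hnrnpul2 (higher by 0.99; 0.058 and 0.037) and Srsf2 (lower by 0.97; 0.077 and 0.010). Hnrnph3 stood at 11.15 on 1 U0126 array and 9.19 on the other.

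The 3 calls under U0126 were sensitive to single arrays. Hnrnpa2b1 was lost without control day 2.5 replicate 1 (adjusted p = 0.0656). Hnrnpa1 was lost without either control array or U0126 replicate 1 (0.129 to 0.189), and Srsf4 without any of the 4 (0.0834 to 0.227) and in the fit over all probe sets (0.052). Fitted on the 4 arrays alone, 0 members and 0 genes passed. Under median centring, which moved the median of all genes from 0.11 to -0.09, 0 members were higher and 3 lower, and 553 genes were higher and 624 lower in place of 915 and 469. The probe sets of Hnrnpa2b1 also differed among themselves. Against day 2.5 controls, 1433830_at was lower by 0.94 (adjusted p = 0.042), whereas 1420365_a_at differed by only -0.10 (adjusted p = 0.894), lying at 12.80 and 12.65 under U0126 and at 12.90 and 12.76 in controls. In the first control step, 1433830_at gave -0.66 (adjusted p = 0.053) where 1420365_a_at gave 1.48 (adjusted p = 0.0030). With probe sets of the suffixes _x_at, _s_at and _a_at left out, 1433830_at stands for the gene and its sign in that step turns. The suffixes mark probes that can bind several transcripts, and close paralogs and processed copies of hnRNP A genes are known, so these values are uncertain.

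Srsf6 showed the widest fall under U0126 of any member probe set, though not in the probe set that stands for the gene. Srsf6 encodes an SR protein that activates weak exons. It was picked out after its values were seen. Its brightest probe set lay at 10.38 and 10.55 under U0126, against 11.15 and 10.75 in day 2.5 controls, and did not pass (-0.48 ± 0.35). Probe set 1416721_s_at lay at 6.04 and 7.03 against 9.67 and 9.56 in those controls, a fall of 3.08 ± 0.38 (adjusted p = 0.0018 over all probe sets). Probe set 1447898_s_at fell by 2.61 ± 0.38 (adjusted p = 0.0031) and 1416720_at by 1.95 ± 0.33 (adjusted p = 0.0057). On all 3, both U0126 arrays lay below both arrays of control day 1.5, where 1416721_s_at stood at 8.01 and 8.03. At released day 3.5 they were back up, with 1416721_s_at at 8.60 and 9.16, a rise of 2.35 ± 0.38 from U0126 (adjusted p = 0.0019). All 3 falls stayed past the test without each of the 4 arrays in turn, with adjusted p from 0.0022 to 0.0453. The difference between these probe sets and the brightest one was not tested. Of the 120 member probe sets, 1 was higher and 9 were lower under U0126, from 1 and 5 genes, against 7.64% higher and 4.74% lower of all probe sets. The 9 were the 3 of Srsf6, 2 of Srsf1, 2 of Hnrnpa2b1 and 1 each of Hnrnpa1 and Hnrnpc. The 1 that was higher belonged to Srsf11.

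Embryos under U0126 were also set against 2-cell controls, where the share of members that were higher was near that of all genes. Compared with control day 1.5, 12 of 45 members were higher and 5 lower, with a median of 0.46, against 28.1% and 22% of all genes with a median of 0.18. With the block the counts were 19 and 5, against 3265 and 2477 of the 9930 genes. Both comparisons share the day 1.5 arrays, so their values are given side by side. Srsf3 was higher by 2.27 ± 0.28 under U0126 and by 2.94 ± 0.28 in day 2.5 controls. Hnrnph1 was higher by 2.30 ± 0.27 and 1.72 ± 0.27, Sf3a2 by 2.06 ± 0.23 and 1.95 ± 0.23, Srsf9 by 1.87 ± 0.37 and 2.61 ± 0.37, and Snrpb by 1.59 ± 0.25 and 1.85 ± 0.25. Hnrnpa2b1 was at 0.23 ± 0.25 under U0126, which did not pass, and at 1.56 ± 0.25 in controls.

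Hnrnpul2, Srsf4 and Srsf10, high at the 2-cell stage, were lower under U0126 than at day 1.5. Hnrnpul2 was lower by 1.72 ± 0.31 and Srsf4 by 0.80 ± 0.25 (adjusted p = 9.6e-04 and 0.022), and Srsf10 lay at 9.17 and 10.15 against 10.65 and 10.67 (adjusted p = 0.024). Srsf5 was lower by 1.06 ± 0.34 (adjusted p = 0.024) and Srsf1 by 0.77 ± 0.29 (adjusted p = 0.0498, and 0.057 in the fit over all probe sets). The count of 5 lower members fell to 2 without either day 1.5 array and to 1 without U0126 replicate 1, where Hnrnpul2 alone kept its call. Median centring moved the median of all genes in this comparison from 0.18 to 0.02 and left 11 members higher and 5 lower. For Hnrnpu, the brightest probe set was higher by 0.98 ± 0.27 (adjusted p = 0.011) and 1434391_at lower by 1.23 (adjusted p = 0.035), at 5.83 and 4.99 under U0126 against 7.28 and 6.01 on day 1.5. The call of the brightest probe set was lost without control day 1.5 replicate 2 (0.0585) or U0126 replicate 1 (0.0764).

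**Figure D4:**
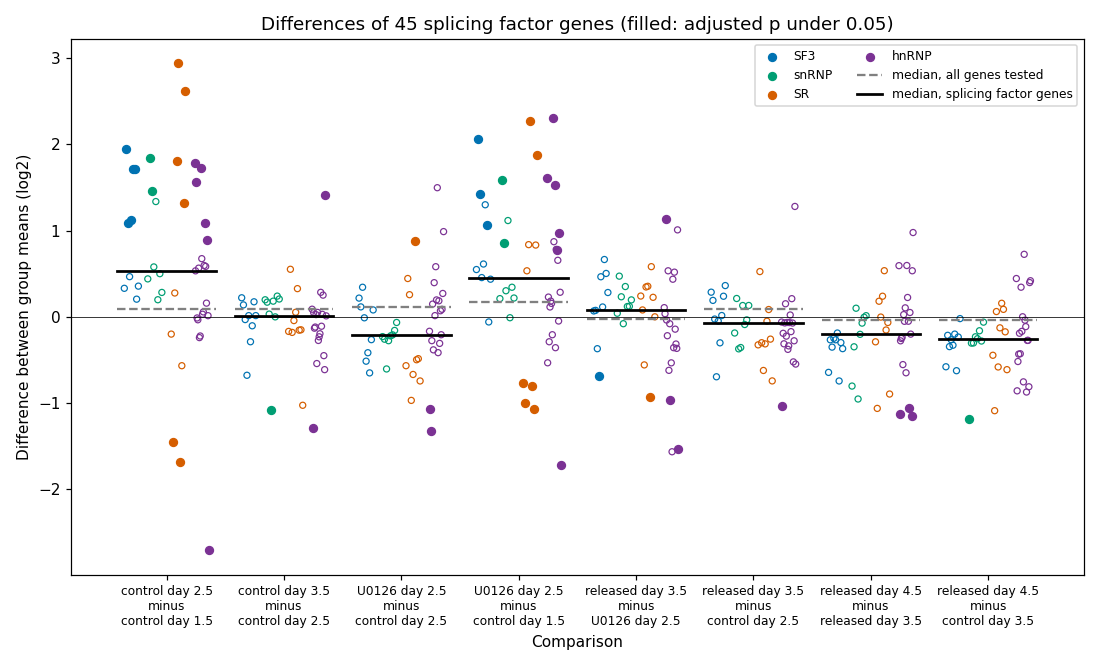
Each point is the difference of 1 of 45 splicing factor genes in 1 of 8 comparisons, coloured by family and filled where the adjusted p is under 0.05; the black and dashed lines are the medians of these genes and of all genes tested. The black line lies at 0.53 in the first control step and between -0.25 and 0.46 in the other comparisons.

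Released day 3.5 embryos were set against the U0126 arrays, which also enter the comparison with day 2.5 controls, so the values of both are not independent. From U0126 to released day 3.5, 1 member rose and 4 fell, with a median of 0.08, while 13.7% of all genes rose and 14.5% fell. The rising gene was Hnrnpa2b1, up by 1.14 ± 0.25 (adjusted p = 0.0071) to 12.73 and 12.77, and its call held without each of the 4 arrays. Hnrnpul2 fell by 1.54 ± 0.31 (adjusted p = 0.0047), from 10.03 and 9.25 to 8.21 and 8.01, also without each array. Hnrnph1 fell by 0.96 ± 0.27 (adjusted p = 0.023), from 13.24 and 12.84 to 12.15 and 12.02. Srsf4 fell by 0.93 ± 0.25 (adjusted p = 0.020), to 8.56 and 8.52, and Sf3b1 by 0.68 ± 0.23 (adjusted p = 0.046), to 11.92 and 11.73. These last 3 calls were lost without single arrays. Hnrnph1 reached 0.0709 to 0.11 without U0126 replicate 1 or either released array, Srsf4 0.077 to 0.0897 without U0126 replicate 2 or either released array, and Sf3b1 0.0801 to 0.205 without any of the 4 and 0.059 in the fit over all probe sets. With the block 2 rose and 6 fell, against 1831 and 1898 of the 9930 genes. Of the called genes, 4 had further probe sets past the filter, 7 in number. Of these 7, 5 had the same sign and 1 passed in the same direction.

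Between released 8-cell embryos and day 2.5 controls 1 member passed, by a narrow margin. By limma, 0 of 45 were higher and 1 was lower, with 1 and 2 at an unadjusted p under 0.05, against 8.61% and 4.05% of all genes. The median was -0.07. Hnrnpa1 was lower by 1.03 ± 0.29 (adjusted p = 0.044), at 10.20 and 10.57 against 11.44 and 11.40. The call was lost without any of the 4 arrays (0.107 to 0.211) and in the fit over all probe sets (0.058). Hnrnpa1 thus stood at similar levels under U0126, at released day 3.5 and at control day 3.5, between 10.04 and 10.66 on all 6 arrays, below the 4 arrays of control day 1.5 and 2.5 except for an overlap with 10.65 on 1 day 1.5 array. With the block 1 member was higher and 2 lower, against 1314 and 704 of the 9930 genes. Median centring moved the median of all genes from 0.09 to -0.11 and left 0 members higher and 2 lower. The pairing is by named stage, and some embryo markers differed. Krt8 averaged 13.18 at released day 3.5, 9.59 at control day 2.5 and 13.41 at control day 3.5. In the same order Cdx2 averaged 9.18, 7.41 and 9.66, and Nanog 10.63, 8.39 and 11.09. Krt18 and Zfp352 were also higher than at control day 2.5, while Pou5f1, Gata6, Zp3, Dppa3 and Tfap2c did not pass.

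From released day 3.5 to day 4.5, 0 members rose and 3 fell by limma, with 2 and 8 at an unadjusted p under 0.05, against 7.37% and 6.37% of all genes. The median was -0.20. Hnrnpu fell by 1.14 ± 0.27 (adjusted p = 0.020), from 12.60 on both arrays to 11.65 and 11.26. Hnrnpa1 fell by 1.12 ± 0.29 (adjusted p = 0.030), to 9.20 and 9.33, the lowest of its 12 arrays. Hnrnpll, which regulates exons of a receptor phosphatase in lymphocytes, fell by 1.05 ± 0.26 (adjusted p = 0.024), from 11.01 and 10.99 to 9.97 and 9.92. With the block 1 rose and 8 fell, against 1089 and 1076 of the 9930 genes. The 3 genes that fell had 6 other probe sets past the filter. Of these, 3 had the same sign and 0 passed in the same direction. With the mean of all probe sets of a gene, 0 of the 3 calls remained. Hnrnpa1 and Hnrnpll were each lost without any of the 4 arrays (0.0816 to 0.152), and Hnrnpu without either day 3.5 array or day 4.5 replicate 2 (0.079 to 0.159).

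Released day 4.5 embryos were compared with day 3.5 controls of the same stage. By limma 0 members were higher and 1 was lower, with 0 and 6 at an unadjusted p under 0.05, against 3.85% and 2.03% of all genes. Snrpa1, which encodes the A' protein of the U2 particle, stood at 11.04 and 11.13, against 12.25 and 12.30 in controls, and was lower by 1.19 ± 0.25 (adjusted p = 0.021). All other arrays of Snrpa1 lay between 11.48 and 12.30. The call was lost without any of the 4 arrays (0.063 to 0.173), and all 3 of its probe sets were lower, 2 of them past the test. All 9 SF3 genes and all 8 snRNP genes had negative differences, and the median over the 45 members was -0.25 against -0.03 for all genes. Of all genes tested, 4703 of 9930 had positive differences. With the block 0 members were higher and 3 lower, against 576 and 441 of the 9930 genes. Of the oviduct markers, Wfdc2 was highest in the released day 4.5 group and Ovgp1 was not, as given above.

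The last step after release was set by an interaction against the control step between the nearest named stages. The starting groups of these steps differed in some embryo markers, as given above. By limma 0 of 45 members were higher and 0 lower, against 1.02% and 1.32% of all genes. At an unadjusted p under 0.05 by limma, 1 member was higher and 3 lower. The block left 0 and 0 members, against 250 and 365 of the 9930 genes. The median difference between the steps was -0.12 for the members and -0.13 for all genes. Over the 8 comparisons between groups, 27 members passed at least once. The 18 that never did were Sf3a1, Sf3b5, Sf3b6, Snrpd3, Snrpe, Snrpf, Snrpg, Srsf11, Hnrnpab, Hnrnpc, Hnrnpd, Hnrnpdl, Hnrnpf, Hnrnph2, Hnrnpk, Hnrnpl, Hnrnpm and Hnrnpr. Hnrnpk, a protein that binds runs of C, lay between 12.86 and 13.73 on all arrays, and Sf3a1 between 7.78 and 9.25.

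Other genes of the splicing machinery were counted in 8 lists, of which 131 of 145 genes matched on the array were tested. In the first control step 31 rose (23.7%) and 19 fell (14.5%), with a median of 0.21, against 28% and 27.4% of all genes. The counts of the single lists below are to be read against those shares, and no list was tested against another. The Lsm ring of the U6 RNA rose in 4 of 6 genes, with Lsm6 up by 2.53 ± 0.34, Lsm4 by 2.52 ± 0.33 and Lsm3 by 2.38 ± 0.27. Among other snRNP proteins 6 of 19 rose and 2 fell, with Eftud2, a GTPase of the U5 particle, up by 3.26 ± 0.34 and Snrnp35 down by 1.54 ± 0.40. Of the Prp19 complex and catalytic factors 5 of 28 rose and 2 fell, with Xab2 up by 1.95 ± 0.46 and Dhx8 down by 1.57 ± 0.42. Of the genes that assemble snRNPs 4 of 13 rose and 2 fell, with Gemin5, which binds small nuclear RNA, up by 2.74 ± 0.46 and Coil down by 1.54 ± 0.32. In the list of SR protein kinases and importers, which also holds Ppp1r8, 0 of 10 rose and 3 fell, a share of 30% (0 and 4 at an unadjusted p under 0.05 by limma). Srpk2, which phosphorylates SR proteins, fell by 3.52 ± 0.32 (adjusted p = 7.2e-06). Ppp1r8 fell by 1.03 ± 0.25, and Clk4 fell from a mean of 5.54 to 4.66, near the filter level of 5. Factors of the 3 prime splice site gave 1 rise (Dhx15, 1.08 ± 0.27) and 3 falls of 16, the widest in Rbm5 (-1.89 ± 0.38). The exon junction list gave 1 fall of 7, in Pnn (-1.22 ± 0.25).

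Among regulators of alternative splicing 11 of 32 rose (34.4%) and 6 fell (18.8%) in the first step, and this list held both the widest rise and the widest fall of the 8 lists. Esrp2, which drives epithelial splicing, rose by 4.51 ± 0.30, and Ptbp2, a neural repressor of exons, fell by 5.26 ± 0.49. Under U0126 against day 2.5 controls, 1 was higher and 6 lower (3.12% and 18.8%, against 9.21% and 4.72% of all genes). Elavl2 was higher by 2.56 ± 0.37 (adjusted p = 0.0027), and Mbnl2, a muscleblind protein, lower by 2.73 ± 0.45 (adjusted p = 0.0047). From U0126 to released day 3.5, Mbnl2 rose by 3.62 ± 0.45 and Elavl2 fell by 3.80 ± 0.37. In the SR kinase list 2 of 10 were higher under U0126 and 0 lower: Srpk2, by 1.12 ± 0.32 (adjusted p = 0.041), and Clk4, by 1.08 ± 0.30 (adjusted p = 0.039). Clk4 averaged 4.66 in day 2.5 controls and 5.74 under U0126, near the filter level of 5, where Srpk2 averaged 8.10 and 9.22. After release 4 of the 10 fell, with Srpk2 down by 1.53 ± 0.32 (adjusted p = 0.0055). Over all 8 lists, 7 genes were higher and 7 lower under U0126 (5.34% each, against 9.21% and 4.72% of all genes). On release 6 rose and 19 fell (4.58% and 14.5%, against 13.7% and 14.5%). From control day 2.5 to day 3.5, 1 rose and 9 fell (0.763% and 6.87%, against 13.4% and 8.28%). Released day 3.5 against control day 2.5 gave 1 higher and 5 lower (0.763% and 3.82%, against 8.61% and 4.05%). The last released step gave 2 rises and 4 falls (1.53% and 3.05%, against 7.37% and 6.37%). Released day 4.5 against control day 3.5 gave 1 and 1 (0.763% each, against 3.85% and 2.03%). Against 2-cell controls, 32 were higher and 13 lower under U0126 (24.4% and 9.92%, against 28.1% and 22%).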

How the data were processed

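Total RNA of mouse embryos was labelled with biotin in 2 cycles and hybridised to Affymetrix mouse genome arrays, per the labels' protocols. The deposited values are intensity on a linear scale, made with GCRMA per the submitters' processing notes; what a later GeneSpring step did is not stated. Of 45101 probe sets, 34958 had 1 gene symbol in GEO's platform annotation, 932 several and 9211 none. Probe sets with several symbols were left out, among them those of Snrpa and Snrpd1. For each gene the probe set with the highest mean was used as log2(intensity + 1). Genes at 5 or more on at least 2 arrays were tested with limma 3.58.1 in R 4.3.3 on 6 group means, without a block, with Benjamini-Hochberg adjustment per comparison. Same-numbered arrays deviated together (15 of 15 correlations over 0.1, from 0.125 to 0.417), and the series text speaks of 2 independent experiments. The numbers may thus pair the arrays, though the labels do not say so. The main fit ignores such a pairing, and counts with the replicate number as a block are given beside it. The fit was tested on simulated data. The rule for named genes took, per comparison, up to 5 rising and 5 falling called members without overlap between groups, called members of the interaction, fixed members of each family, members never called, members with opposed probe sets, and the widest called rise and fall of each other list. Other genes named, such as further called members, Lsm3, Lsm4, Clk4, Hnrnpc and the Srsf6 probe sets, were chosen after their values were seen. Alternatives were the offset, filter, centring, choice of probe set, arrays fitted, replicate block and each array left out; the Srsf6 probe sets were added after seeing the data. Members and lists were chosen with earlier results of these data known.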

Additional observations from a re-analysis of the deposited data

Results flagged for a closer look

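Mbnl3 is a muscleblind regulator of alternative splicing and no member of the 4 families. It was picked out by a test of the difference between steps. Its last step after release differed from the control step between the nearest named stages. Of the 131 tested genes of the 8 lists, Mbnl3 was the 1 that passed as higher (0.763%), and 0 passed as lower. Among all genes tested the shares were 1.02% and 1.32%. The interaction was 3.45 ± 0.55 (SE, limma adjusted p = 0.0148, and 0.0134 with the replicate block). Mbnl3 lay at 7.31 and 8.06 at released day 3.5 and at 11.21 and 11.73 at released day 4.5, against 6.89 and 7.71 at control day 2.5 and 8.00 and 7.28 at control day 3.5. The 2 released day 4.5 arrays stood above all other arrays. The oviduct marker Wfdc2 was also highest there, at 8.56, while the oviduct marker Ovgp1 was at 4.40 against 5.60 under U0126. Their part in the result was not tested.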

How the results depend on the processing

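With the replicate block all 52 calls of members stayed past the test and, beyond the calls named above, counts moved as follows. From control day 2.5 to 3.5, 4 fell with the block or centring, 1 with only the arrays compared and 0 without suffix probe sets, and 0 rose with centring or no filter (leave-one-out 0 to 1 higher, 0 to 1 lower). For U0126 against control day 2.5, 2 were higher with an offset of 16, 3 with the block, and 0 with centring, without suffix probe sets or with only the arrays compared, where 0 were lower (leave-one-out 0 to 2 higher, 0 to 2 lower). For U0126 against control day 1.5, 19 were higher with the block and 7 with only the arrays compared, where 1 was lower (leave-one-out 9 to 14 higher, 1 to 5 lower). From U0126 to released day 3.5, 3 rose without suffix probe sets, 2 with the block and 0 with only the arrays compared, where 0 fell (leave-one-out 1 to 3 lower). For released day 3.5 against control day 2.5, 2 were lower with the offset, centring or block and 0 without suffix probe sets or with only the arrays compared, and 1 was higher with the block (leave-one-out 0 to 0 lower). In the last released step 1 rose with the offset, block or without suffix probe sets, and 5 fell with the offset, 8 with the block, 1 with the mean of probe sets and 1 without suffix probe sets (leave-one-out 0 to 1 lower). For released day 4.5 against control day 3.5, 2 were lower with the offset, 3 with the block and 0 without suffix probe sets or with only the arrays compared (leave-one-out 0 to 0 lower). The interaction gave 1 lower with only the arrays compared. In the first control step leave-one-out gave 13 to 17 higher and 3 to 3 lower. Hnrnpa2b1 turned to -0.66 there without suffix probe sets, since another probe set then stands for the gene. Why these counts moved was not tested. Of the 52 calls, 26 held without each array in turn and 26 were lost without at least 1.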
